A study of Mus musculus with 6 samples.

Results

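The 10 genes described here encode proteins of contractile actin filaments, or are classical transcriptional targets of serum response factor (SRF) and of the coactivators YAP and TAZ: *Acta2*, *Tagln*, *Cnn1*, *Myl9*, *Tpm1*, *Tpm2*, *Vcl*, *Ctgf*, *Cyr61* and *Ankrd1*. They were chosen by symbol from a list of actin, contractile and SRF or YAP target genes that counteract adipogenesis. All 10 are among the 52089 symbols of the table, with 67 of its 168021 transcript accessions. The accessions per gene range from 1 for *Ctgf* to 33 for *Tpm1*.

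SRF is a transcription factor that binds a short DNA element, the CArG box, and works with the coactivators MRTF-A (*Mkl1*) and MRTF-B (*Mkl2*), which enter the nucleus when monomeric actin is used up in filaments. YAP (*Yap1*) and TAZ (*Wwtr1*) do not bind DNA themselves and use TEAD factors. They are held in the cytoplasm by the kinases of the Hippo pathway and are released in spread, tense cells. Preadipocytes are spread cells with stress fibres. They round up and dismantle these fibres as they differentiate, and a tense actin cytoskeleton is known to hold adipogenesis back.

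The cells were primary preadipocytes from the stromal-vascular fraction of inguinal white adipose tissue of 129SvEv mice aged 5 to 6 weeks. After 2 days of induction they had been differentiating for 1 day with 1 µM rosiglitazone, which drives them to brite, that is thermogenic, adipocytes. In 3 samples the long noncoding RNA *Ctcflos* was knocked down (KD) with a locked nucleic acid gapmer antisense oligonucleotide at 50 nM, and 3 samples received a nontargeting gapmer at the same dose. Total RNA was harvested 24 h after transfection and sequenced, and *Ctcflos* (1300015D01Rik) had 0.0969, 0.0705 and 0.210 RPKM in the KD libraries against 0.748, 0.751 and 0.840 in the controls (log2 fold change -0.66, adjusted p = 0.025 from limma).

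RPKM are read counts divided by the length of the transcript in kilobases and by the mapped reads of that library in mio, and the value of a gene is the mean over its accessions. The depth recovered from the values was 60.7 to 75.4 mio reads in KD and 62.9 to 79.3 mio in control libraries, so that 1 RPKM stood for 60.7 to 79.3 reads on a transcript of 1 kb. The sources used here do not say whether the 3 libraries of a group came from separate animals, and p-values measure the spread between these libraries. Adipocyte markers were present in all libraries, with *Fabp4* between 2829 and 4243 RPKM. The sum over 10 of them, most of it *Fabp4*, was 4734 to 6263 RPKM in KD and 6424 to 7115 in control libraries. Of the 10, 1, *Cebpa*, was called lower, beside 12.4% of all genes tested. In 6 of them every KD library was below every control and in 0 above, beside 21.9% and 22.9% of all genes tested. Of 8 progenitor and fibroblast markers past the filter, 1, *Pdgfra*, was called lower, beside the same 12.4%. The 7 endothelial markers and 14 of 15 skeletal and cardiac muscle markers were under 0.5 RPKM throughout. The libraries are bulk RNA, in which fewer cells of a type and less RNA per cell cannot be told apart.

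The secreted matricellular proteins *Ctgf* and *Cyr61* rose with *Ctcflos* KD, and the nuclear cofactor *Ankrd1*, another YAP target, had higher values in every KD library than in any control. None of the 7 contractile and adhesion genes passed the test in either direction, although 6 of them had lower means in KD. Of the 8 genes with a mean of at least 1 RPKM, 2 were called higher and 0 lower (limma-trend on log2(RPKM + 1), Benjamini-Hochberg adjusted p under 0.05), beside 11.5% called higher, 12.4% lower and 24% in either direction among 11701 genes tested, so that the share of members called was near that of all genes. The difference between the contractile genes and the other 3 was not tested. Of the lower ones, 1 (*Vcl*) had an unadjusted p under 0.05, beside 4556 of the 11701 genes tested, in either direction. The median log2 fold change of these 8 was -0.40, that of all genes 0.028.

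*Ctgf* (now *Ccn2*) encodes connective tissue growth factor, a matricellular protein that is among the most widely used readouts of YAP activity. It lies on the plus strand at chr10:24595442-24598683 (GRCm38). KD replicates 1 to 3 had 30.1, 28.7 and 18.7 RPKM, and the controls 4.68, 19.8 and 5.08. Both groups had a library apart from its fellows: control replicate 2 was 4.06 times the mean of the other controls and just above KD replicate 3, so that the groups overlapped at that point. The mean was 25.9 ± 6.23 (SD, n = 3) in KD and 9.86 ± 8.63 in control cells, or 262% of control, with a log2 fold change of 1.55 (standard error, SE, 0.463, adjusted p = 0.045 from limma). Its only accession overlaps a noncoding gene, *Gm15270*, on the other strand, and whether the counting was strand-specific is not given in the sources used here.

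*Cyr61* (now *Ccn1*), a matricellular protein of the same family that binds integrins, is on the minus strand at chr3:145646976-145649981. It had 72.9, 75.5 and 47.1 RPKM in KD and 32.0, 41.6 and 37.0 in control libraries. The lowest KD library was above the highest control, and the spread within the controls was small. KD cells reached 177% of control (65.1 ± 15.7 against 36.9 ± 4.83, SD, n = 3), with a log2 fold change of 0.78 (SE 0.200, adjusted p = 0.028 from limma).

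*Ankrd1* encodes a nuclear ankyrin repeat protein of stretched muscle and of spread fibroblasts. It is on the minus strand at chr19:36111961-36120099. Its level was low, with 1.30, 1.45 and 0.943 RPKM in KD and 0.218, 0.731 and 0.307 in control libraries. The groups did not overlap, and the KD mean was 294% of control. Its mean is below the filter of 1 RPKM. In the same test without a filter its log2 fold change was 0.66 ± 0.161 (SE, limma adjusted p = 0.063, not called), where 4.71% of 38335 genes were called, 1.96% higher and 2.76% lower, and 28.1% had groups without overlap, 15.2% with KD higher and 12.9% with KD lower.

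In all 3 of these genes KD replicate 3 was the lowest of the KD libraries and control replicate 2 the highest of the controls. *Ctgf* was still called without KD replicate 3 (log2 fold change 1.76) and without control replicate 2 (2.16, adjusted p = 0.0089 from limma). It was not called without any one of the other 4 libraries, with adjusted p of up to 0.15 from limma. *Cyr61* was called without KD replicate 3 (adjusted p = 0.0019) and not without any of the other 5, with adjusted p from limma between 0.052 and 0.11. Without a filter on low values, the adjusted p from limma was 0.12 for *Ctgf* and 0.071 for *Cyr61*, neither of them called. *Ankrd1* was called without KD replicate 3 (adjusted p = 0.046 from limma) and from RefSeq accessions alone (adjusted p = 0.034 from limma). In these settings, 41.1% of 11704 and 30.3% of 9585 genes past the filter were called. *Ankrd1* is below the filter and was read from the fit without one, whose share called in these settings is not given here.

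**Figure D1:**
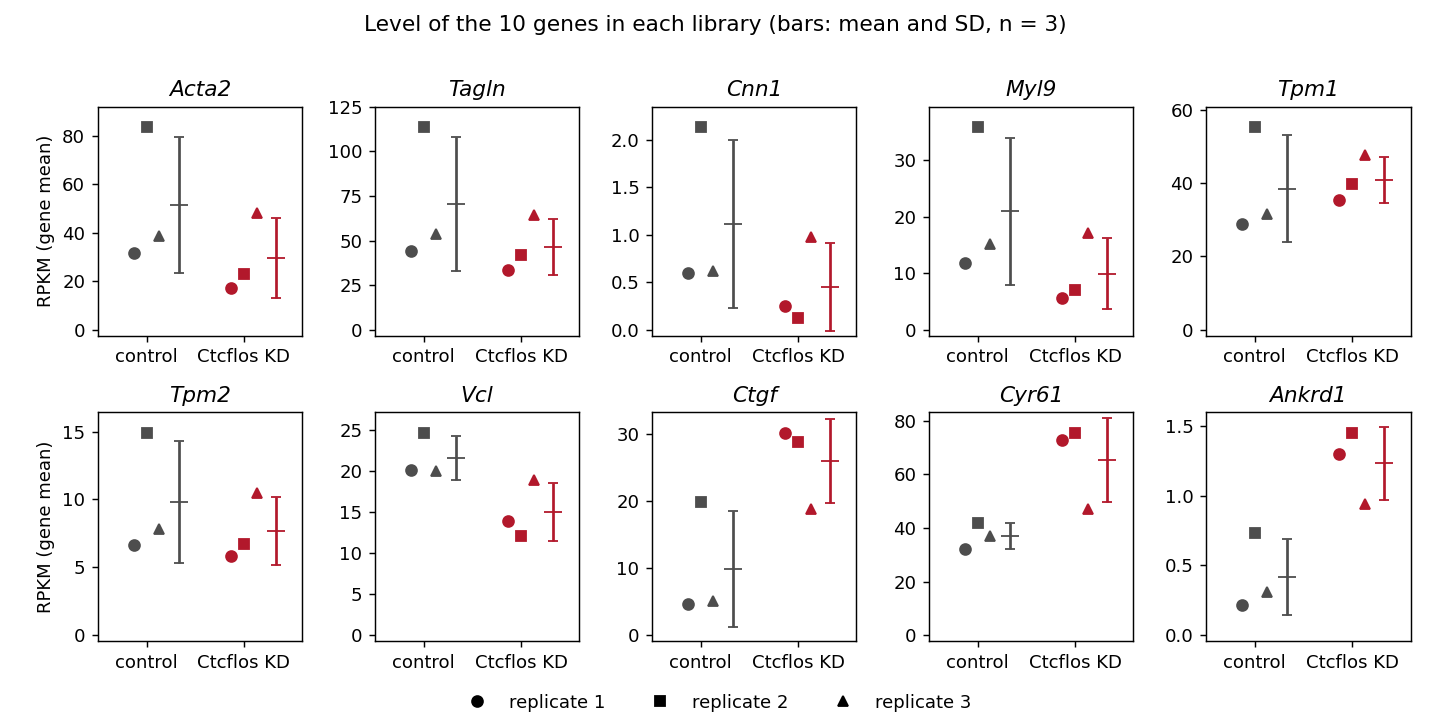
RPKM of each of the 10 genes on a linear axis in the 3 control libraries (grey) and the 3 *Ctcflos* KD libraries (red). Symbols mark the replicate number and bars the mean and SD. Control replicate 2 (square) is the highest library for all 7 contractile and adhesion genes, while for *Cyr61* and *Ankrd1* every KD library is above every control.

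The contractile genes showed another order of libraries. *Acta2*, smooth muscle alpha actin, the marker of smooth muscle and of activated fibroblasts, lies on the minus strand at chr19:34241090-34255590. KD libraries 1 to 3 gave 17.2, 22.8 and 48.2 RPKM, and controls 1 to 3 gave 31.6, 83.6 and 38.8. Control replicate 2 was 2.37 times the mean of the other controls, and KD replicate 3 was 2.41 times the mean of the other KD libraries and above both remaining controls. Against this spread, the KD mean of 57.2% of control (29.4 ± 16.6 against 51.4 ± 28.2) did not pass the test (log2 fold change -0.79 ± 0.434 SE, limma adjusted p = 0.21).

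*Myl9*, the regulatory light chain of smooth muscle and nonmuscle myosin, is on the plus strand at chr2:156775420-156781658. It repeated this order, with 5.62, 6.97 and 17.1 RPKM in KD and 11.7, 35.9 and 15.2 in control libraries. KD replicates 1 and 2 were below every control, and KD replicate 3 was above 2 of them. The KD mean was 47.2% of control, and the log2 fold change had a 95% interval from -2.06 to 0.064 (limma adjusted p = 0.15).

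*Tagln*, the actin-bundling protein transgelin or SM22 alpha, had 33.4, 41.8 and 64.2 RPKM in KD and 44.1, 114 and 53.9 in control libraries (log2 fold change -0.52 ± 0.362 SE, limma adjusted p = 0.31). It is on the minus strand at chr9:45929619-45936058 and overlaps *Pcsk7*, a proprotein convertase gene on the plus strand. *Pcsk7* was also highest in control replicate 2, at 18.2 RPKM against 8.79 and 10.8 in the other controls. Whether reads of the pair were told apart by strand is not given in the sources used here.

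*Cnn1*, calponin, a late smooth muscle marker that inhibits the actomyosin ATPase, is on the plus strand at chr9:22099216-22109630 and was near the limit of the filter. It had 0.250, 0.120 and 0.973 RPKM in KD and 0.590, 2.13 and 0.617 in control libraries, with overlap. In the fit without a filter, the log2 fold change was -0.51 (adjusted p = 0.39 from limma).

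The tropomyosins lie along the actin filament and govern its access to myosin. The KD mean was above the control mean for *Tpm1* and below it for *Tpm2*. *Tpm1*, on the minus strand at chr9:67022590-67049406, had 35.3, 39.7 and 47.7 RPKM in KD and 28.7, 55.3 and 31.5 in control libraries. All 3 KD libraries were above control replicates 1 and 3 and below control replicate 2. The log2 fold change was 0.13 ± 0.244 (SE, limma adjusted p = 0.71). *Tpm2*, on the minus strand at chr4:43514711-43523765, had 5.81, 6.74 and 10.5 RPKM in KD and 6.66, 14.9 and 7.80 in control libraries (log2 fold change -0.27, adjusted p = 0.51 from limma). Without control replicate 1, the log2 fold change of *Tpm1* was -0.041, and without control replicate 2 that of *Tpm2* was 0.044, so that neither had a stable direction.

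*Vcl*, vinculin, links integrin adhesions and cell junctions to actin. It was the only contractile or adhesion gene whose groups did not overlap, with 13.9, 12.1 and 18.9 RPKM in KD and 20.1, 24.7 and 20.0 in control libraries. The KD mean was 69.3% of control (15.0 ± 3.52 against 21.6 ± 2.67, SD, n = 3), and the log2 fold change of -0.52 (SE 0.173) had an adjusted p of 0.063 from limma. Among all genes tested, 44.8% had groups without overlap, 22.9% with KD higher and 21.9% with KD lower. At chr14:20929398-21033676 on the plus strand, *Vcl* spans 104 kb and overlaps *Ap3m1*, and the 899 tested genes of at least 100 kb had a median log2 fold change of -0.35 against 0.052 for 8504 shorter genes. The part of gene length in the value of *Vcl* was not tested.

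**Figure D2:**
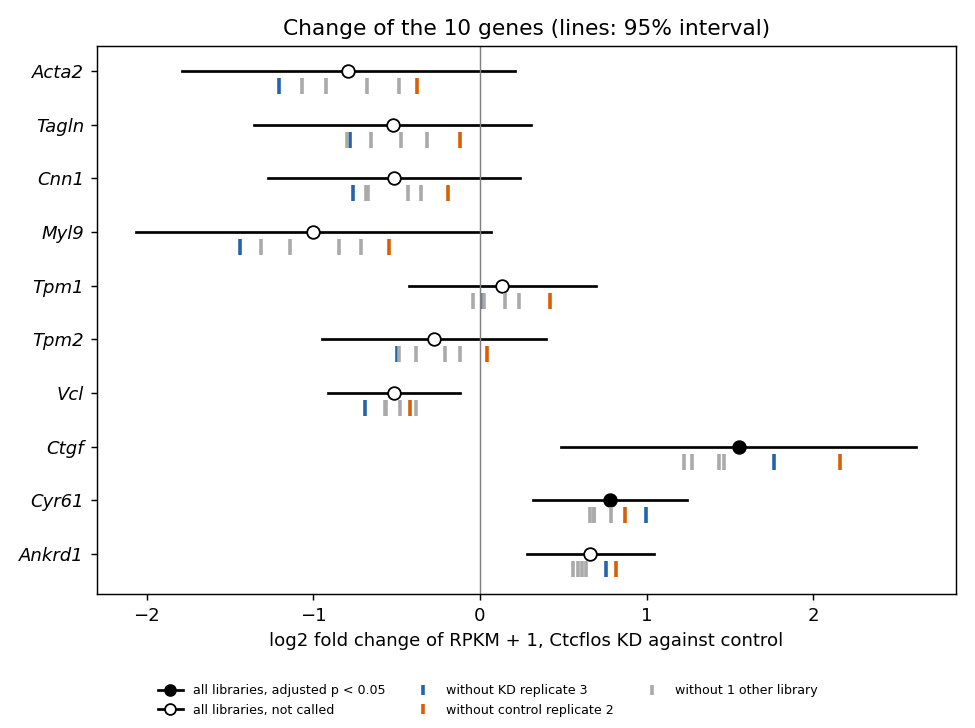
Log2 fold change of RPKM + 1 for the 10 genes, *Ctcflos* KD against control. Circles and lines give the estimate and its 95% interval from all 6 libraries, filled for an adjusted p under 0.05 (limma), and ticks give the estimate with 1 library left out. *Ctgf* and *Cyr61* are filled, *Acta2* and *Myl9* move to the left without KD replicate 3 and to the right without control replicate 2, and *Tpm1* and *Tpm2* reach both sides of 0.

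The order of libraries was shared among the contractile genes. Control replicate 2 was the highest of 6 libraries in all 7 of them, and KD replicate 3 was the second highest in 6, *Vcl* excepted. On the scale of log2(RPKM + 1), control replicate 2 exceeded the mean of the other controls by more than 1.5-fold in 59 of 11701 genes (0.504%). These 59 held 6 of the 8 tested members, *Acta2*, *Tagln*, *Myl9*, *Tpm1*, *Tpm2* and *Ctgf*. KD replicate 3 exceeded the mean of the other KD libraries by as much in 195 genes (1.67%), with *Acta2*, *Tagln*, *Myl9* and *Tpm2* among them, and was below that mean by as much in 855 genes, the most of any library, 2 of them members. KD replicates 1 and 2 exceeded the mean of their fellows in 346 and 219 genes, none of them members. Control replicate 2 was below its fellows in 233 genes, none of them members. The 2 lists shared 15 genes, 25.4% of the first and 7.69% of the second.

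The 15 shared genes also held genes of macrophages, 2 of which are given here and were chosen after their values were seen. *Lyz2*, the lysozyme of myeloid cells, had 1.24, 1.70 and 12.8 RPKM in KD and 7.41, 24.5 and 6.90 in control libraries, and the complement gene *C1qb* had 0.0980, 0.167 and 2.70 against 0.277, 2.66 and 0.296. The sum over 7 macrophage markers was 7.30 to 19.1 RPKM in KD and 9.37 to 31.2 in control libraries, highest in KD replicate 3 and in control replicate 2, and *Lyz2* made up most of it in both. Its defining members *Emr1* and *Ptprc* stayed at or below 0.345 and 0.0486 RPKM. Both were highest in control replicate 2 and, within KD, in replicate 3. So was *C1qa* of the list, with 0, 0.102 and 2.34 RPKM in KD and 0.209, 2.64 and 0.305 in control libraries. In *Cd68*, *Csf1r* and *Cd14* of the list, KD replicate 3 was instead the lowest KD library. Control replicate 2 was still the highest control for *Cd68* and *Csf1r*, but not for *Cd14*. *Cd68*, a lysosomal protein, had 4.12, 3.44 and 2.16 RPKM in KD and 0.657, 1.92 and 0.664 in control libraries. It was called higher in KD, with a log2 fold change of 1.05 (adjusted p = 0.023 from limma). The receptor gene *Csf1r* had 1.31, 1.48 and 1.10 RPKM in KD and 0.269, 0.833 and 0.438 in control libraries, and *Cd14* had 0.606, 0.586 and 0.580 against 0.726, 0.932 and 1.05. The part of these cells in the values of the contractile genes was not tested.

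Markers that set smooth muscle apart from other cells with stress fibres were scarce. *Myh11*, the smooth muscle myosin heavy chain, had 0.170 to 0.668 RPKM, desmin (*Des*) 0.238 to 0.523, and *Myocd*, the SRF coactivator of smooth muscle, at most 0.0347. The mural cell gene *Rgs5* did not exceed 0.199 RPKM. Of 14 smooth muscle and mural markers, 3 passed the filter. Of these, *Mcam*, a cell adhesion molecule of pericytes and other cells, was called lower (log2 fold change -0.56, adjusted p = 0.020 from limma), beside 12.4% of all genes tested. The sum of these 14 was 15.5 to 21.8 RPKM in KD and 21.1 to 27.4 in control libraries. Smooth muscle gamma actin (*Actg2*) had 0.215, 0.338 and 1.10 RPKM in KD and 0.589, 2.38 and 0.632 in control libraries, and leiomodin (*Lmod1*) had 0.128, 0.138 and 0.474 against 0.428, 1.26 and 0.372. Both were highest in control replicate 2 and, within KD, in replicate 3.

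**Figure D3:**
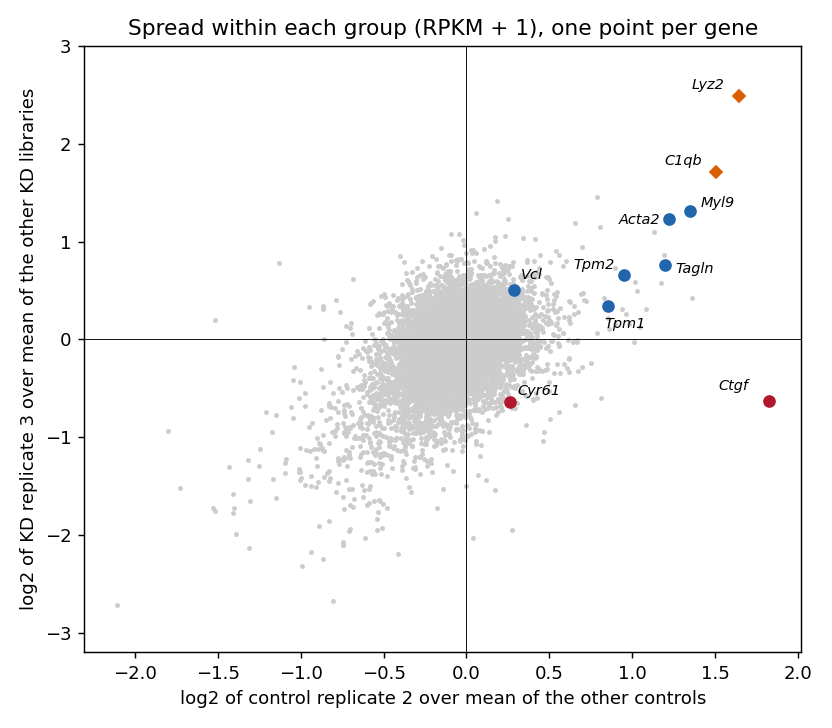
Spread within each group for the genes tested (grey), on the scale of log2(RPKM + 1): control replicate 2 over the mean of the other controls (horizontal) and KD replicate 3 over the mean of the other KD libraries (vertical). The tested contractile and adhesion members (blue) lie above 0 on both axes, with *Vcl* nearest to the bulk of genes, and *Lyz2* and *C1qb* (orange) lie further up, whereas *Ctgf* and *Cyr61* (red) lie below 0 on the vertical axis, and 1 gene lies below the plotted range.

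Without both libraries, an alternative chosen after seeing the data, 3 members were called higher and 3 lower, where 39.1% of genes past the filter were called. That share does not apply to *Ankrd1*, which is below the filter and was read from the fit without one. *Ctgf* then had a log2 fold change of 2.37 (adjusted p = 0.0011 from limma), *Cyr61* of 1.08 (adjusted p = 0.0027 from limma) and *Ankrd1* of 0.91 (adjusted p = 0.030 from limma). *Acta2* was at -0.79 (adjusted p = 0.017 from limma), *Myl9* at -0.99 (adjusted p = 0.0063 from limma) and *Vcl* at -0.59 (adjusted p = 0.010 from limma). The libraries left out were those that stood apart in these same genes, so that a smaller spread follows from the choice. With KD replicate 3 alone left out, the same 3 contractile genes were called lower (*Acta2* -1.20, *Myl9* -1.44, *Vcl* -0.69), where 41.1% of all genes were called. With control replicate 2 alone left out, none of them was called lower, where 13.5% of all genes were called. *Acta2* was then at -0.38 (adjusted p = 0.53 from limma).

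A ratio of 2 genes within a library does not depend on the scaling of that library. The ratio of *Ctgf* to *Acta2* came to 1.75, 1.26 and 0.388 in KD and 0.148, 0.237 and 0.131 in control libraries. The lowest KD ratio was above the highest control ratio, although *Ctgf* itself overlapped. *Cyr61* over *Acta2* was 4.24, 3.31 and 0.977 in KD and 1.01, 0.498 and 0.954 in control libraries, with overlap at KD replicate 3. These ratios were chosen after the values were seen and were not tested.

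By length-scaled level, the control order of means was *Tagln*, *Acta2*, *Tpm1*, *Cyr61*, *Vcl*, *Myl9*, *Ctgf*, *Tpm2*, *Cnn1* and *Ankrd1*, from 70.6 to 0.419 RPKM, with overlapping values between neighbours in that order, except between *Cyr61* and *Vcl* and between *Tpm2* and *Cnn1*. In KD, *Cyr61* had the highest mean and *Tagln* the second. These are means over unlike numbers of accessions, some of them low, and single accessions gave another order. In controls, NM_007392 of *Acta2* had a mean of 91.3 RPKM, NM_024427 of *Tpm1* 78.3 and NM_011526 of *Tagln* 59.4. In KD, NM_024427 of *Tpm1* had a mean of 82.4 RPKM and NM_010516 of *Cyr61* 64.9. Over the 6 libraries and 2987 genes with a mean of at least 10 RPKM, the patterns most like that of *Acta2* included those of the histone genes *Hist1h1b* (Pearson's r of log2(RPKM + 1) 0.97) and *Hist2h2bb* (0.97). *Hist1h1b* had 18.3, 23.3 and 36.7 RPKM in KD and 25.8, 40.8 and 31.1 in control libraries. Most like *Ctgf* was a transcript without a gene symbol, followed by *Ddx21*, an RNA helicase of the nucleolus (0.97), with 12.5, 12.6 and 11.9 RPKM in KD and 6.78, 10.1 and 7.58 in control libraries. Such values share libraries and their scaling, and they describe likeness only.

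Of 60 member accessions with a mean of at least 1 RPKM, 4 were called higher and 1 lower in abundance (26% of 67403 accessions were called, 11.3% higher and 14.7% lower). The higher ones were the accession of *Ctgf*, both of *Cyr61* and the clone AK029384 of *Tpm1*, and the lower one was the clone AK035184 of *Vcl* (log2 fold change -0.56, adjusted p = 0.049 from limma). For relative use within the gene, which could be tested in 7 of the 10 genes, 0 of 59 accessions were called by limma and 0 had an unadjusted p under 0.05, and limma's diffSplice also called 0 of them. Over all genes, 0% of 64643 accessions were called for use by limma. Accessions of a gene share reads and are not independent.

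*Tpm1* makes long and short tropomyosins from a distal and an internal first exon. The 6 Ensembl transcripts with the distal first exon and the last exon at the 3′ end of the gene had KD means of 74.0 to 87.6 RPKM against 70.2 to 83.2 in controls, that is 105% to 106% of control. The 3 with the internal first exon and the same last exon were at 106% to 107%. The 2 with the internal first exon and an upstream 3′ end were lower in level, with 5.57 and 5.93 RPKM in KD and 4.25 and 4.42 in controls, or 131% and 134% of control. The 3 with the distal first exon and an upstream 3′ end were at 104% to 115% of control. ENSMUST00000129466, a short transcript with the distal first exon, had 6.50 against 4.90 RPKM, or 133% of control. The other short transcript of this kind, ENSMUST00000131279, was at 103%. These differences of use did not pass the test. The excess of control replicate 2 over the other controls ranged from 1.57-fold and 1.59-fold in the 2 with the internal first exon and an upstream 3′ end to 2.31-fold in ENSMUST00000131279, also a short transcript from the distal first exon.

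Promoters of 8 of the 10 genes were in the RefSeq table (GRCm38.p6), those of *Tagln* and *Ctgf* were not. In the 250 bases before the start, GGAATG or its complement CATTCC, the core of TEAD sites, was found in 5 of the 8 (*Cyr61*, *Ankrd1*, *Acta2*, *Tpm1* and *Vcl*) and in 12.6% of 32851 promoters. A full CArG box, searched on both strands, was in 2 of the 8 (*Myl9* and *Vcl*) and in 1.47% of promoters, and one with at most 1 departing base was in 4 of the 8 and in 18.6%. The windows are shown because they hold the letters that SRF and TEAD factors are known to read, for *Cyr61* and *Ankrd1* with higher and *Acta2*, *Myl9* and *Vcl* with lower KD means. They are written 5′ to 3′ on the strand of the gene, with the motif in capitals.
Cyr61, TEAD core: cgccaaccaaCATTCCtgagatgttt
Ankrd1, TEAD core, distal copy: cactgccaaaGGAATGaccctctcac
Ankrd1, TEAD core, proximal copy: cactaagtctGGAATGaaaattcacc
Acta2, TEAD core: gcagaacagaGGAATGcagtggaaga
Acta2, CArG box with 1 departing base, distal copy: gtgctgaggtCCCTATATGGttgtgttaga
Acta2, CArG box with 1 departing base, proximal copy: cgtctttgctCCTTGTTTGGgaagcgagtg
Myl9, CArG box: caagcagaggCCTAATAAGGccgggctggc
Vcl, CArG box: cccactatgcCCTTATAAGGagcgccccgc
Vcl, TEAD core: ccctcccttgGGAATGggggcggggc

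The window of *Cyr61* is at chr3:145650073-145650098, its motif beginning 103 bases before the start, and those of *Ankrd1* are at chr19:36120039-36120064 and chr19:36119952-36119977. The windows of *Acta2* are at chr19:34255504-34255529, chr19:34255438-34255467 and chr19:34255388-34255417. Those of *Acta2* and *Ankrd1* also fall in an exon of 1 Gencode transcript of the same gene that starts further upstream. The window of *Myl9* is at chr2:156775293-156775322 and those of *Vcl* are at chr14:20929161-20929190 and chr14:20929245-20929270, all upstream of the annotated transcripts. Genes with higher and genes with lower KD means both held TEAD cores, and *Vcl* held both motifs 227 and 143 bases before its start. A match of letters is a description of the window, and binding was not measured.

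Among 18 further YAP and TEAD target genes past the filter, 4 rose and 3 fell, beside 11.5% called higher and 12.4% lower among all genes, and the median log2 fold change was -0.17. *Ajuba*, a LIM protein that restrains the kinase LATS, rose from 0.627, 1.20 and 0.797 RPKM in the controls to 8.59, 6.54 and 3.65 in KD (log2 fold change 1.90, adjusted p = 0.0053 from limma). *Lats2*, the Hippo kinase that YAP induces as feedback, rose from 2.60, 3.14 and 3.01 to 8.81, 6.70 and 5.33 RPKM (log2 fold change 1.00). In both, KD replicate 3 was again the lowest KD library. The stress-response gene *Gadd45b* (1.00) and the angiomotin-like gene *Amotl2* (0.49) also rose. The RNA-binding protein *Rbms3* (-0.94), the insulin-like growth factor binding protein *Igfbp3* (-0.59) and the guanine nucleotide exchange factor *Dock5* (-0.57) fell.

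Of 16 regulators of the Hippo pathway past the filter, 4 were called higher, 2 lower and 10 not, beside 24% called in either direction among all genes. *Amot*, the angiomotin that binds YAP and actin, had 9.08, 6.81 and 6.97 RPKM in KD and 2.48, 2.54 and 2.53 in control libraries (log2 fold change 1.28, adjusted p = 0.0020 from limma). *Tead2*, one of the DNA-binding partners of YAP, had 2.99, 3.13 and 2.17 RPKM in KD and 0.887, 1.02 and 1.08 in control libraries (log2 fold change 0.91). Both had groups that did not overlap. *Tead1*, another TEAD gene, went the other way without overlap, with 1.68, 0.572 and 1.27 RPKM in KD and 2.47, 2.22 and 1.88 in control libraries. It was not called (log2 fold change -0.58, adjusted p = 0.055 from limma). *Wwtr1*, which encodes TAZ, rose to 131% of control (log2 fold change 0.37, adjusted p = 0.041 from limma), and the TEAD cofactor *Vgll3* rose by 0.60 on the log2 scale. The upstream tumour suppressor *Nf2* (-0.61) and the kinase *Stk3* (-0.47), which encodes MST2, fell. *Yap1* itself had a log2 fold change of 0.0041 (95% interval -0.29 to 0.29).

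Of 14 regulators of SRF and MRTF past the filter, 0 were called higher and 1 lower by limma (24% in either direction among all genes). An unadjusted p under 0.05 was found for 5 of the 14, beside 4556 of 11701 among all genes. The one called was *Elk1*, an SRF partner of the ternary complex factor family, at 45.6% of control (log2 fold change -0.77, adjusted p = 0.0085 from limma). *Srf* had 3.81, 3.46 and 2.82 RPKM in KD and 2.67, 2.92 and 2.68 in control libraries (log2 fold change 0.21, adjusted p = 0.19 from limma). *Mkl1* was at 0.170 to 0.471 RPKM with overlapping groups. *Mkl2* was at 0.569, 0.279 and 0.514 against 1.08, 0.898 and 0.900 RPKM, below the filter and not called (adjusted p = 0.070 from limma).

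In the wider cytoskeleton, 21 further contractile and actin filament genes past the filter held 2 that rose and 1 that fell, beside 24% called in either direction among all genes. Caldesmon (*Cald1*), which binds actin and tropomyosin, fell by 1.01 on the log2 scale (adjusted p = 0.034 from limma). It had 9.08, 12.4 and 20.3 RPKM in KD and 23.5, 36.2 and 25.0 in control libraries, with control replicate 2 and KD replicate 3 each highest in its group as for *Acta2*. The actin monomer binder *Tmsb4x* (0.81) and the filament-severing cofilin *Cfl2* (0.44) rose. *Actb*, the actin of all cells, had a log2 fold change of 0.13 (adjusted p = 0.62 from limma) and was also highest in control replicate 2, at 863 RPKM.

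Of 26 focal adhesion and stress fibre genes past the filter, 4 rose and 4 fell, beside 24% called in either direction among all genes. The integrin-linked adaptor *Parva* fell most, from 5.09, 5.75 and 5.46 RPKM in the controls to 1.69, 1.43 and 2.16 in KD (log2 fold change -1.23, adjusted p = 0.0020 from limma). Its control values were close together, and the groups did not overlap. The zyxin relative *Lpp* (-1.13), the focal adhesion kinase gene *Ptk2* (-0.59) and the actin polymerase *Vasp* (-0.57) fell too. The 899 tested genes of at least 100 kb had a median log2 fold change of -0.35. The part of gene length in the falls of this and the other lists was not tested. Zyxin (*Zyx*, 0.71), the LIM proteins *Pdlim7* (0.59) and *Fhl2* (0.51) and the VASP relative *Enah* (0.46) rose.

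**Figure D4:**
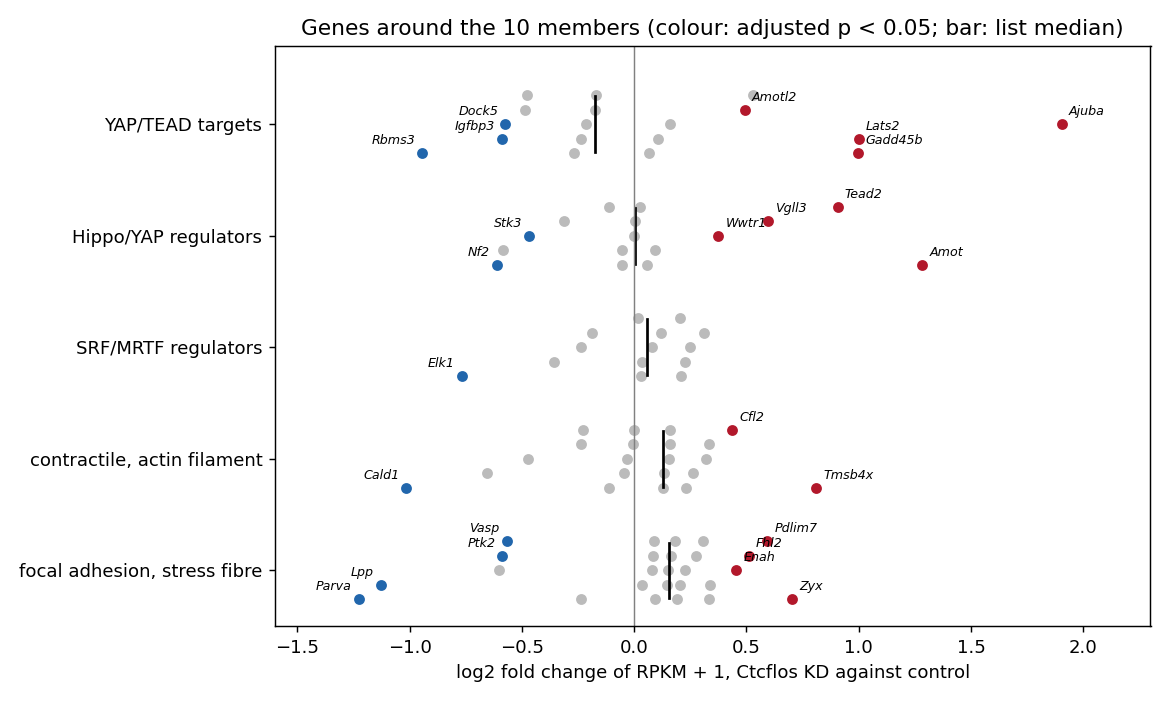
Log2 fold change of RPKM + 1, *Ctcflos* KD against control, for genes of 5 lists around the 10 members, with a mean of at least 1 RPKM. Each point is a gene, red or blue for an adjusted p under 0.05 (limma), and the black bar is the median of the list. Called genes lie on both sides of 0 in every list but that of SRF and MRTF regulators, where *Elk1* is the one called.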

How the data were processed

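Samples were grouped and numbered as their labels give them. The authors deposited one file with the RPKM of each library, written with decimal commas, for accessions of RefSeq, Ensembl and GenBank, and replicates were not pooled. Libraries were made with a stranded total RNA kit, and reads had 150 bp. How its reads were counted is not given in the sources used here. After 305 repeated lines were removed, accessions were averaged per symbol. Abundance was tested with limma-trend on log2(RPKM + 1) for genes with a mean of at least 1 RPKM, and members below it in the same fit without a filter. Relative use was log2 of accession over gene mean with 0.1 added to each. Adjusted p-values are Benjamini-Hochberg over all features tested, and standard errors are those of limma. A fold change on log2(RPKM + 1) understates that of low genes. With 3 libraries against 3, the smallest p of an exact two-sided permutation test is 0.1, which was reached by *Vcl*, *Cyr61* and *Ankrd1*. The depth was recovered from low values of Ensembl transcripts, at least 95.0% of which were whole reads within 0.05.

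Members and lists were chosen with earlier results of these data known. The genes named are *Ctcflos*, the members, the regulators of both pathways, the 3 largest rises and falls called without overlap of each list, and the 3 genes most like *Acta2* and *Ctgf*, of which 1 is not reported here. *Vasp*, *Enah*, *Amotl2*, *Actb*, *Pcsk7*, *Lyz2*, *C1qb* and the cell type markers with values were named after values were seen. Places are from Gencode vM21 and promoters from RefSeq. A CArG box was read as CC, then A or T at 6 places, then GG. On simulated data, the test recovered 200 of 200 changed genes. This does not give the power of the test at the spread of these libraries. Alternatives were a pseudocount of 0.1, no filter, the replicate number as a block, rescaling to the median of ratios, RefSeq accessions alone, the highest accession alone, an adjusted p of 0.01, limma's diffSplice and leaving out each library. Python 3.11.15 with numpy 2.4.6, pandas 2.3.3 and matplotlib 3.10.9 and R 4.3.3 with limma 3.58.1 and version 1.17.8 of data.table were used.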

Additional observations from a re-analysis of the deposited data

How the results depend on the processing

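The 2 members called higher, *Ctgf* and *Cyr61*, were also called with a pseudocount of 0.1, the replicate block, rescaling to the median of ratios and the highest accession alone. No member was called at an adjusted p under 0.01 (0 higher), and without a filter on low values 0 were called higher, with 38335 genes in the adjustment. RefSeq accessions alone gave 3 higher and 1 lower (*Vcl*, adjusted p = 0.050 from limma), where 30.3% of 9585 genes were called. Leaving out 1 library at a time, 0 to 3 members were called higher and 0 to 3 lower. The count of higher members was 0 without KD replicate 1, KD replicate 2, control replicate 1 or control replicate 3. The 3 lower ones came without KD replicate 3, where 41.1% of all genes were called. Leaving out KD replicate 3 and control replicate 2 together gave 3 higher and 3 lower, where 39.1% of genes past the filter were called. In each of these counts of 3 higher, *Ankrd1* was read from the fit without a filter, to which these shares do not apply. With 1 library left out, *Tpm1* ranged from -0.041 (without control replicate 1) to 0.42 on the log2 scale, and *Tpm2* from -0.50 to 0.044 (without control replicate 2), both with a change of direction. For relative use, 0 member accessions were called by limma's diffSplice, without a filter, with the replicate block or with a library left out, and the other alternatives were not run for it. Over all genes, 2803 were called, against 1807 without a filter, 523 at an adjusted p under 0.01 and 369 to 4810 with a library left out.

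KD and control libraries share replicate numbers, and the labels do not say that a number marks a common culture. The correlation of deviations from the group means was 0.287, -0.288 and -0.418 for numbers 1 to 3. It was 0.419 between KD replicate 3 and control replicate 2, a pair chosen after values were seen. Deviations within a group of 3 depend on each other, so these values cannot settle whether the numbers pair the libraries. With the replicate block, 1671 genes were called, and 2 members were called higher (*Ctgf*, adjusted p = 0.038 from limma, and *Cyr61*, adjusted p = 0.048 from limma) and 0 lower.

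With 3 libraries a group and 1 in each group apart from its fellows in the contractile genes, the 95% intervals were wide, from -1.79 to 0.21 for *Acta2*, from -1.36 to 0.31 for *Tagln* and from -2.06 to 0.064 for *Myl9* on the log2 scale. The levels of *Cnn1* and *Ankrd1* are low, and their log2 fold changes were larger in size at a pseudocount of 0.1 (-1.25 and 1.46) than at 1 (-0.51 and 0.66). The cause of the changes under other settings was not tested.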
